A study of Mus musculus with 10 samples.

Results

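The Schlafen genes are a mouse gene family, of which 7 listed members were analysed here, Slfn1, Slfn2, Slfn3, Slfn4, Slfn5, Slfn8 and Slfn9. Family members outside this list were not analysed. The members were taken by a fixed list of Ensembl gene IDs. Its rule used no measured value, but the list was chosen with earlier results of these data known. All 7 IDs were found among the 16860 gene-level probesets of the table. They are ENSMUSG00000078763 (Slfn1), ENSMUSG00000072620 (Slfn2), ENSMUSG00000018986 (Slfn3), ENSMUSG00000000204 (Slfn4), ENSMUSG00000054404 (Slfn5), ENSMUSG00000035208 (Slfn8) and ENSMUSG00000069793 (Slfn9). The symbols are those of that list, since the table itself carries IDs only.

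Schlafen proteins were first described in developing mouse T cells, where they are tied to growth arrest and quiescence. All members share a core domain. The shortest proteins (Slfn1, Slfn2) consist of little more, Slfn3 and Slfn4 are of middle length, and the long ones (Slfn5, Slfn8, Slfn9) carry a further C-terminal region with helicase-like motifs. Several members are known to be induced by type I interferon, which macrophages release after lipopolysaccharide (LPS), a wall component of Gram-negative bacteria, engages Toll-like receptor signalling. ATF3 is a transcription factor that Toll-like receptor signals induce and that is known to dampen a number of inflammatory genes.

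Expression was measured on Affymetrix Mouse Genome 430 2.0 arrays in macrophages grown from femoral bone marrow of C57BL/6J mice aged 8 to 12 weeks, all labelled female, in medium with 50 ng/mL recombinant human M-CSF. The groups were Atf3-/- cells given LPS at 10 ng/mL for 4 h from day 7 (2 arrays), wild type (WT) cells given the same LPS (2 arrays), Atf3-/- cells without LPS (3 arrays) and WT cells without LPS (3 arrays). Atf3-/- cells lack both intact copies of Atf3 per the label, which does not give how the allele was made. Separate mice or cultures behind the arrays of 1 group are not stated, and the p-values refer to the spread among these arrays, which may be technical. The comparisons ask how the genes respond to LPS in each genotype, whether that response depends on Atf3, and how the genotypes differ in either state.

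Array medians lay between 5.45 and 5.56 on the log2 scale and the lowest value of an array between 2.26 and 2.41. Because the IDs could not be paired with other gene symbols, Atf3 itself and markers of macrophages or of other cells were not analysed here. An on/off probeset, ENSMUSG00000086503, divided the arrays into a high state (8.95 to 9.57) and a low state (2.94 to 3.76). All 3 WT arrays without LPS were high and both WT arrays with LPS were low, so that in WT the state and LPS cannot be told apart. In Atf3-/- 1 of 2 arrays with LPS and 1 of 3 without LPS were high, which allows values within each state. The files do not say what this probeset measures. Whether it is a sex-linked transcript, and so whether the label female holds for every array, was not settled here. If it is, the WT arrays with and without LPS would differ in sex as well as in LPS. Where a fit below takes the state as a covariate, its size therefore comes from the Atf3-/- arrays and is taken to hold in WT too. In whole cultures, more cells expressing a gene and more RNA per cell cannot be told apart. Probe sequences were not used here, so how far probes of similar members cross-hybridise was not tested.

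The members lie close together on mouse chromosome 11 in the order Slfn5, Slfn9, Slfn8, Slfn2, Slfn1, Slfn4 and Slfn3 (RefSeq annotation of GRCm38.p6). The same table places Slfn10-ps, which is not on the list, between Slfn8 and Slfn2. Promoter stretches of 5 members are shown because they hold the motif matches described next and include the 3 genes that differed between genotypes. Capitals mark the motif named for each, all sequences read 5′ to 3′ on the gene's strand, and positions count from the RefSeq transcription start. The stretch is chr11:83175086-83175205 (+, bases -100 to 20) for Slfn4, with an AP-1 motif in capitals. It is chr11:83116720-83116839 (+, -100 to 20) for Slfn1, with an NF-kB consensus match in capitals. For Slfn8 it is chr11:83020791-83020910 (-, -100 to 20) and for Slfn9 chr11:82991811-82991930 (-, -100 to 20), both with an interferon-stimulated response element (ISRE) in capitals. For Slfn5 it is chr11:82951902-82952021 (+, -200 to -81), again with the ISRE in capitals.
Slfn4: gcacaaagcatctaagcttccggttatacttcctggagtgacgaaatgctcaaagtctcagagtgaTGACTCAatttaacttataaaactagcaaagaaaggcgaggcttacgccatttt
Slfn1: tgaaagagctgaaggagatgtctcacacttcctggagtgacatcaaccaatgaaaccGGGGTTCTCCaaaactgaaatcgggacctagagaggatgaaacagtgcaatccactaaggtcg
Slfn8: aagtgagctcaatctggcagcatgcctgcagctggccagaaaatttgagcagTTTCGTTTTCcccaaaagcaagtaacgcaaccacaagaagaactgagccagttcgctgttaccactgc
Slfn9: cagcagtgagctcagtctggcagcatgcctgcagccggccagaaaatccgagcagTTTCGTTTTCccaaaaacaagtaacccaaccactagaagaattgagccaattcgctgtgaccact
Slfn5: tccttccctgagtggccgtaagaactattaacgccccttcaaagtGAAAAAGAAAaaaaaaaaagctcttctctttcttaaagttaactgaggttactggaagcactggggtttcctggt

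The motif search covered 250 bases before and 50 bases after each start, on both strands. The ISRE core was searched as GAAA followed, after any 2 bases, by GAAA, the gamma-activated site as TTCNNNGAA, the ATF/CRE site as TGACGTCA, AP-1 as TGANTCA, and NF-kB by its consensus. ISRE matches were found in 3 of 7 members, Slfn5, Slfn8 and Slfn9, against 3.44% of all 32851 RefSeq promoter windows of this length. In Slfn8 the match lay at bases -48 to -39 and in Slfn9 at -45 to -36, both on the opposite strand with the same letters, GAAAACGAAA. These 2 promoters were identical at 86.5% of 289 aligned bases. In Slfn5 the match, GAAAAAGAAA, lay farther from the start, at -155 to -146. A second annotated start of Slfn8 places the same element at -136 to -127.

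The AP-1 motif was found in 1 of 7 members, Slfn4, at bases -34 to -28, and in 7.81% of all windows. A single match among 7 members does not stand out from that share. AP-1 is the site bound by dimers of Jun, Fos and ATF proteins, and its letters read as a match on both strands. Binding of any protein to these motifs was not tested. NF-kB matches were found in Slfn1 (-43 to -34) and Slfn9 (-214 to -205), against 4.51% of all windows. No member held a match to the gamma-activated site or to ATF/CRE, which 8.30% and 1.79% of windows hold. Slfn2 and Slfn3 held none of the 5 motifs in this window. No motif overlapped another.

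**Figure D1:**
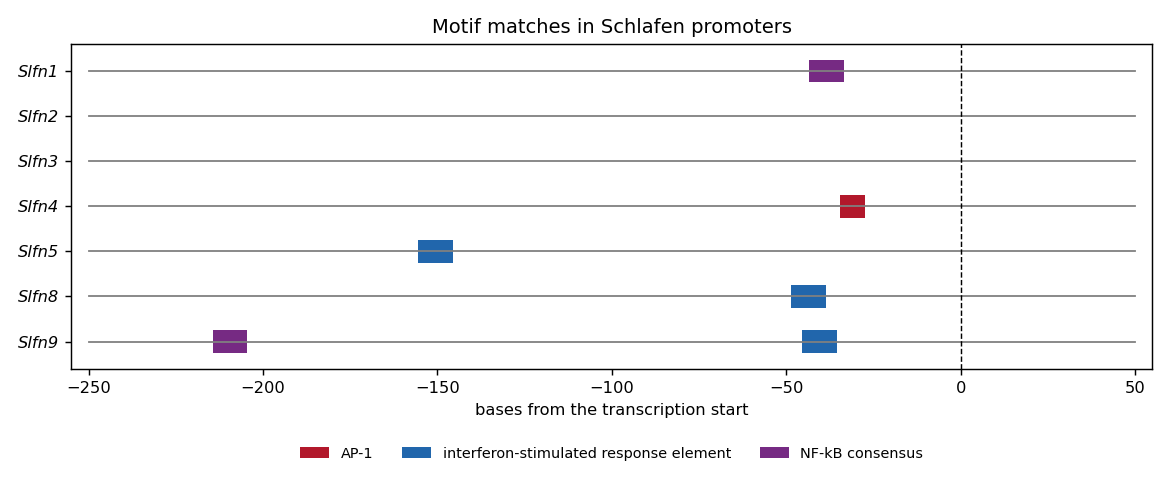
Positions of motif matches in the promoter of each Schlafen gene, in bases from the transcription start (dashed line); each grey line spans the searched window and each coloured block is a match on either strand. Slfn8 and Slfn9 hold the interferon-stimulated response element at nearly the same distance from the start, Slfn4 holds the AP-1 motif at -34 to -28, and Slfn2 and Slfn3 hold no match.

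All 7 listed Schlafen genes rose with LPS in macrophages of both genotypes. In Atf3-/- cells the rises ran from 3.20-fold (Slfn2) to 11.7-fold (Slfn1), and in WT cells from 3.64-fold (Slfn9) to 56.9-fold (Slfn4). The count called higher at a limma adjusted p under 0.05 was 7 of 7 in each genotype, where 16.5% of all genes were called higher in Atf3-/- and 17.8% in WT. All 7 also rose at least 2-fold, as did 5.05% of all genes in Atf3-/- and 6.36% in WT. Arrays with LPS lay above those without for all 7 members in both genotypes, which held for 34.6% of all genes in Atf3-/- and 29.5% in WT. The members' median log2 difference was 2.93 in Atf3-/- and 3.40 in WT, against medians over all genes of 0.06 and 0.02.

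**Figure D2:**
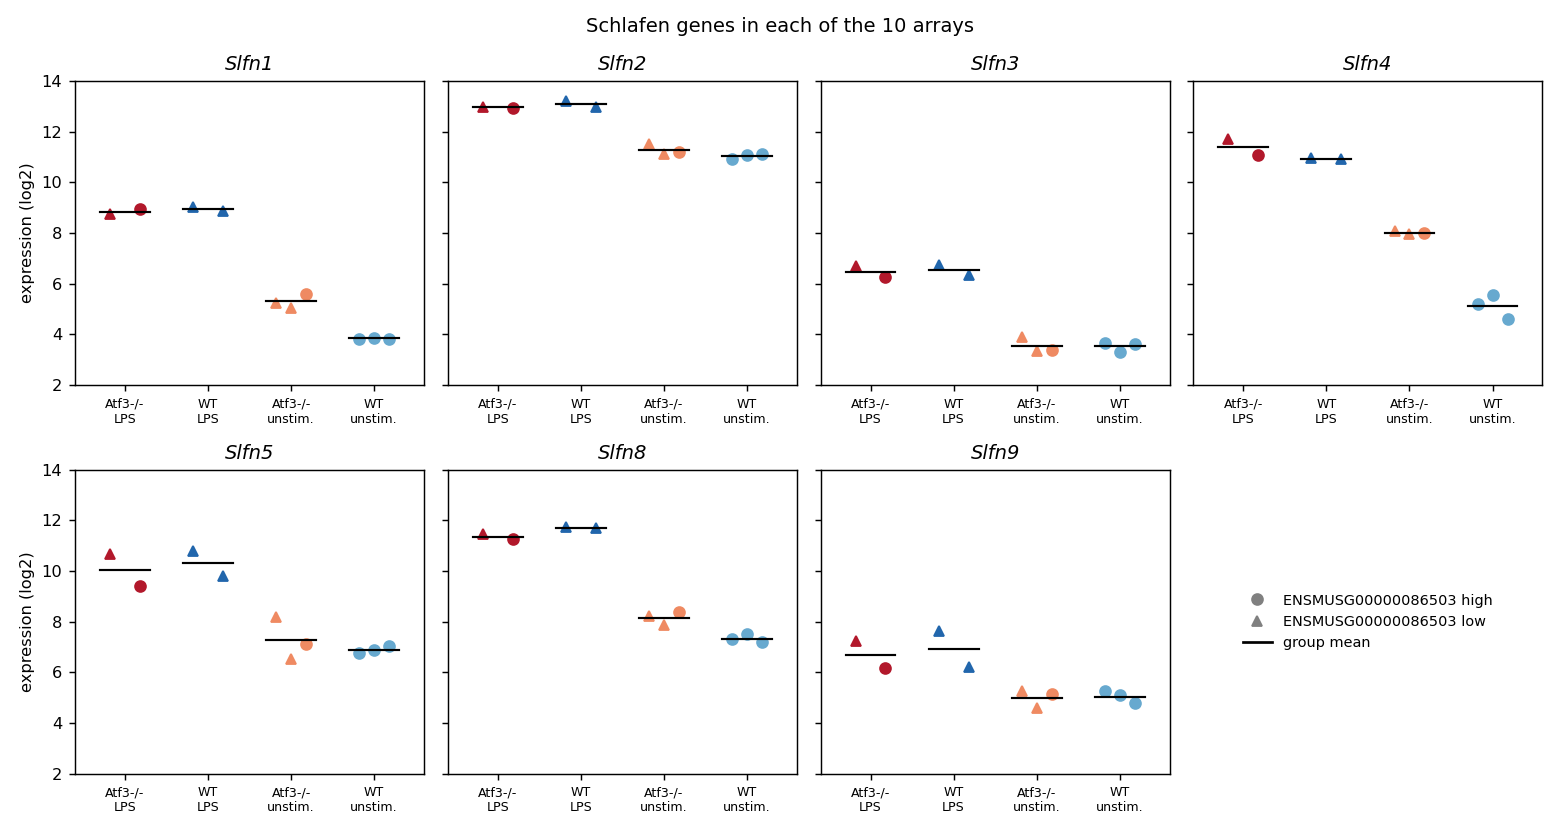
Deposited log2 expression of each Schlafen gene in every array, with Atf3-/- left of WT and LPS left of unstimulated; circles and triangles mark arrays in which the on/off probeset was high or low, and bars are group means. For Slfn4 the unstimulated Atf3-/- arrays (7.96 to 8.09) lie well above the unstimulated WT arrays (4.59 to 5.55), while for Slfn9 these groups overlap.

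Slfn1, the founding member, known for arresting T cell growth when overexpressed, had log2 values of 8.74 and 8.95 in Atf3-/- arrays with LPS and 9.02 and 8.86 in WT arrays with LPS. Without LPS it stood at 5.26, 5.05 and 5.59 in Atf3-/- arrays and at 3.84, 3.85 and 3.83 in WT arrays. The genotypes overlapped after LPS and stood clearly apart without it. LPS raised Slfn1 by 3.54 on the log2 scale in Atf3-/- (SE 0.14, limma adjusted p = 4.70e-09) and by 5.10 in WT (SE 0.14, adjusted p = 2.12e-10). The WT level without LPS, like that of Slfn3 in both genotypes, was low on these arrays, where background signal weighs most, and the background correction is not given in the sources used here.

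Slfn2, whose loss in mutant mice makes T cells and monocytes leave quiescence, was at 12.99 and 12.93 in Atf3-/- arrays with LPS and at 13.21 and 12.97 in WT arrays with LPS. Its values without LPS were 11.52, 11.12 and 11.21 in Atf3-/- arrays and 10.92, 11.07 and 11.11 in WT arrays. Its mean over all arrays exceeded that of 99.3% of genes, and the values without LPS were already high. The rise was 3.20-fold in Atf3-/- (95% interval 2.62 to 3.90, adjusted p = 1.20e-06) and 4.17-fold in WT (3.42 to 5.09, adjusted p = 1.49e-07).

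Slfn3, studied in T cells and in intestinal epithelium, gave 6.68 and 6.28 in Atf3-/- arrays with LPS and 6.75 and 6.36 in WT arrays with LPS. Without LPS the values were 3.88, 3.36 and 3.40 in Atf3-/- arrays and 3.65, 3.30 and 3.64 in WT arrays. Genotypes overlapped in both states. The rises were close in size, 2.93 in Atf3-/- (SE 0.19, adjusted p = 2.63e-07) and 3.03 in WT (SE 0.19, adjusted p = 1.43e-07) on the log2 scale.

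Slfn4, known as a gene of myeloid cells that is regulated during macrophage activation, lay at 11.73 and 11.08 in Atf3-/- arrays with LPS and at 10.95 and 10.93 in WT arrays with LPS. Without LPS its values were 8.09, 7.96 and 7.99 in Atf3-/- arrays and 5.19, 5.55 and 4.59 in WT arrays. The unstimulated Atf3-/- arrays lay between the unstimulated WT arrays and the arrays with LPS. After LPS the genotypes did not overlap either, which held for 41.0% of all genes in either direction. Their difference there was not called (limma adjusted p = 0.450). The rise was 10.5-fold in Atf3-/- (95% interval 7.29 to 15.1, adjusted p = 5.12e-07) and 56.9-fold in WT (39.6 to 81.9, adjusted p = 3.67e-09). Ordered from the highest log2 difference, Slfn4 ranked 116 of 16860 genes in Atf3-/- and 38 in WT.

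Slfn8, a long member, was at 11.45 and 11.27 in Atf3-/- arrays with LPS and at 11.73 and 11.69 in WT arrays with LPS. Its unstimulated values were 8.24, 7.88 and 8.37 in Atf3-/- arrays and 7.32, 7.50 and 7.18 in WT arrays. All 4 groups were free of overlap, with Atf3-/- above WT before LPS and below it after. The difference after LPS (-0.35) was not called (limma adjusted p = 0.326). There 41.0% of all genes were free of overlap in either direction. LPS raised Slfn8 9.17-fold in Atf3-/- (95% interval 7.34 to 11.5, adjusted p = 1.41e-08) and 20.7-fold in WT (16.6 to 25.8, adjusted p = 8.19e-10).

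Slfn5, a long nuclear member, stood at 10.68 and 9.39 in Atf3-/- arrays with LPS and at 10.81 and 9.80 in WT arrays with LPS. Without LPS the values were 8.19, 6.52 and 7.11 in Atf3-/- arrays and 6.77, 6.89 and 7.05 in WT arrays. Replicate 1 was the higher array in both LPS groups and the highest of the unstimulated Atf3-/- arrays. The rise was 2.76 on the log2 scale in Atf3-/- (SE 0.46, adjusted p = 4.94e-04) and 3.40 in WT (SE 0.46, adjusted p = 7.87e-05). In Atf3-/- it was 2.12 without LPS replicate 1 and 3.40 without LPS replicate 2, both past the threshold. In WT it was 2.71 once the array state entered the fit as a covariate, also past the threshold.

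Slfn9, the neighbour of Slfn8, was at 7.24 and 6.16 in Atf3-/- arrays with LPS and at 7.62 and 6.20 in WT arrays with LPS. Without LPS it lay at 5.25, 4.59 and 5.17 in Atf3-/- arrays and at 5.25, 5.10 and 4.79 in WT arrays. Replicate 1 was again the higher array of each LPS group, as it was, with smaller gaps, for Slfn2, Slfn3, Slfn4 and Slfn8. Slfn1 was so placed in WT alone. Among Atf3-/- arrays with LPS, replicate 1 was low-state and replicate 2 high-state, so number and state cannot be told apart there. In WT with LPS the gap of Slfn9 lay between 2 low-state arrays. The cause of the gap of Slfn9 was not tested. The rise was 1.70 in Atf3-/- (SE 0.39, adjusted p = 0.00410) and 1.87 in WT (SE 0.39, adjusted p = 0.00197) on the log2 scale. In Atf3-/- it missed the threshold without LPS replicate 1 (1.16, adjusted p = 0.0615) and was 0.99 among high-state arrays and 2.32 among low-state arrays, each with a single LPS array and given with no test. In WT the call was lost once the array state entered the fit (1.54, adjusted p = 0.0582), and the rise was 1.16 without LPS replicate 1 and 2.57 without LPS replicate 2.

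Members thus differed in how steady they were within groups. The residual SD was 0.68 for Slfn5 and 0.57 for Slfn9, each above that of 99.9% of all genes, against 0.15 for Slfn2, 0.17 for Slfn1 and 0.18 for Slfn8. The SD of Slfn3 was 0.26 and that of Slfn4 0.34. The intervals of Slfn5 and Slfn9 in every comparison are therefore wide.

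**Figure D3:**
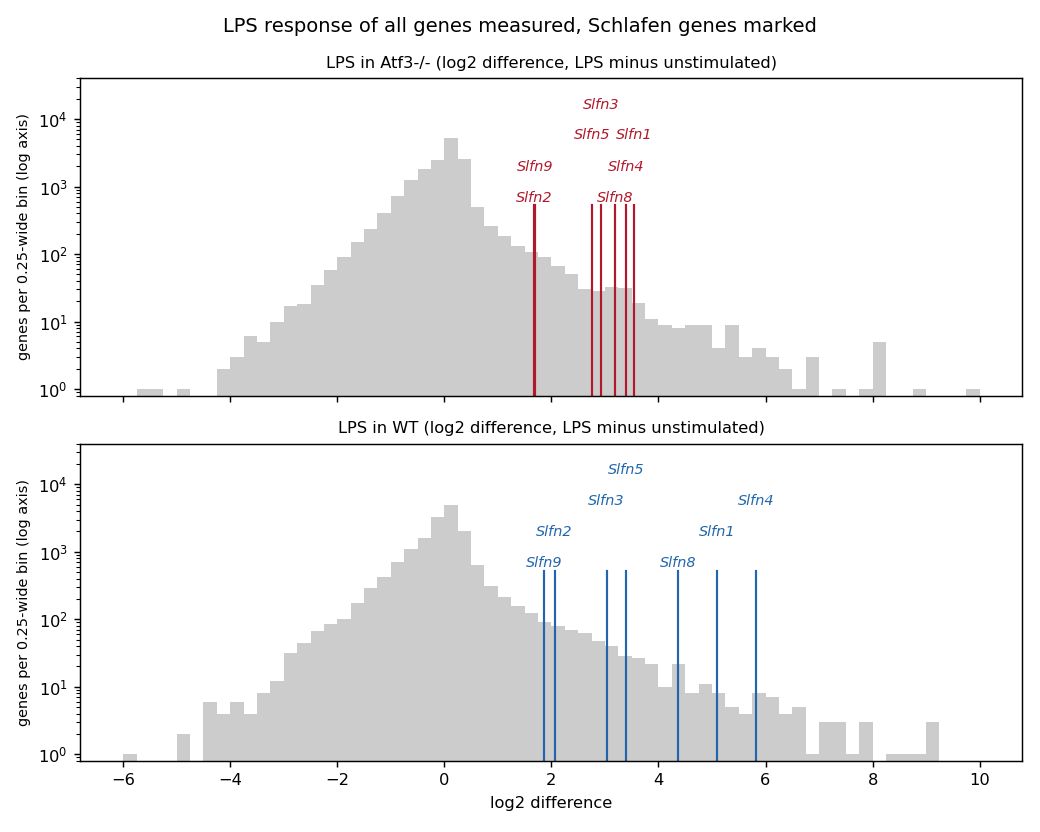
Number of genes by log2 difference (LPS minus unstimulated) in bins of 0.25, for Atf3-/- above and WT below, with a log axis of counts and a line for each Schlafen gene. All 7 lines lie at the right-hand side in both genotypes, and each lies farther right in WT, by most for Slfn4, Slfn1 and Slfn8.

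Without LPS, Slfn4, Slfn1 and Slfn8 were higher in Atf3-/- macrophages than in WT macrophages. Slfn4 averaged 8.02 ± 0.07 in Atf3-/- and 5.11 ± 0.48 in WT (SD, n = 3 each), a 7.49-fold higher level (95% interval 5.41 to 10.4, limma adjusted p = 1.79e-05). Slfn1 averaged 5.30 ± 0.27 in Atf3-/- and 3.84 ± 0.01 in WT (SD, n = 3 each), 2.75-fold higher (2.27 to 3.34, limma adjusted p = 5.30e-05). The WT values of Slfn1 (3.83 to 3.85) were not shown to be above background, so this fold is one of array values. The same limit holds for the response difference of Slfn1 and its share of the WT rise, given below. Slfn8 averaged 8.16 ± 0.26 in Atf3-/- and 7.34 ± 0.16 in WT (SD, n = 3 each), 1.77-fold higher (1.45 to 2.16, limma adjusted p = 0.00250). The 3 called members stand against 7.16% of all genes called higher here. Ordered from the highest difference, Slfn4 ranked 6 of 16860 genes, Slfn1 55 and Slfn8 213.

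The other members did not pass the test. Arrays of the genotypes were free of overlap for 4 of 7 members, the fourth being Slfn2, where 18.2% of all genes were so placed with Atf3-/- higher. Slfn2 differed by 0.25 on the log2 scale (95% interval -0.01 to 0.51, adjusted p = 0.193). The difference was 0.37 for Slfn5 (-0.53 to 1.27, adjusted p = 0.618), 0.02 for Slfn3 (-0.36 to 0.39, adjusted p = 0.962) and -0.04 for Slfn9 (-0.80 to 0.71, adjusted p = 0.958). The interval of Slfn5 reaches a 2.42-fold higher level. Unstimulated Slfn3 lay in about the range of the on/off probeset in its low state and was not shown to be above background, so its interval bounds the array value and not a fold in expression.

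Among the unstimulated arrays, 1 of 3 Atf3-/- and all 3 WT arrays were in the high state. With the state as a covariate over all arrays the differences were 2.71 for Slfn4, 1.68 for Slfn1 and 0.90 for Slfn8, all past the threshold. The single Atf3-/- array in the high state stood above the mean of the 3 WT arrays by 2.88 for Slfn4, by 1.75 for Slfn1 and by 1.04 for Slfn8 on the log2 scale, given as the values of 1 array with no test.

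The excess of Slfn4 in unstimulated Atf3-/- over unstimulated WT cells equalled 49.8% of the WT rise with LPS on the log2 scale. The same share was 28.6% for Slfn1, 18.9% for Slfn8, 12.2% for Slfn2 and 11.0% for Slfn5. It was 0.64% for Slfn3 and -2.24% for Slfn9. Numerator and denominator share the unstimulated WT arrays, so these shares are a description only.

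After LPS 0 of 7 members differed between genotypes by limma at an adjusted p under 0.05, where 3.93% of all genes did in either direction. At an unadjusted p under 0.05 the count was also 0 of 7. Slfn4 averaged 11.41 ± 0.46 in Atf3-/- and 10.94 ± 0.02 in WT (SD, n = 2 each), a log2 difference of 0.46 (95% interval -0.11 to 1.04, limma adjusted p = 0.450). This value turned on the Atf3-/- arrays, being 0.14 without LPS replicate 1 and 0.79 without LPS replicate 2, neither past the threshold. Slfn8 averaged 11.36 ± 0.12 in Atf3-/- and 11.71 ± 0.03 in WT (SD, n = 2 each), a difference of -0.35 (-0.70 to 0.01, limma adjusted p = 0.326). Arrays of the genotypes were free of overlap for Slfn4 and Slfn8 alone, 2 of 7 members, while 41.0% of all genes were so placed in either direction. The difference was -0.10 for Slfn1 (-0.44 to 0.24), -0.13 for Slfn2 (-0.45 to 0.18) and -0.08 for Slfn3 (-0.54 to 0.38). It was -0.27 for Slfn5 (-1.37 to 0.84) and -0.21 for Slfn9 (-1.14 to 0.71), whose intervals extend below a 2-fold lower level.

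**Figure D4:**
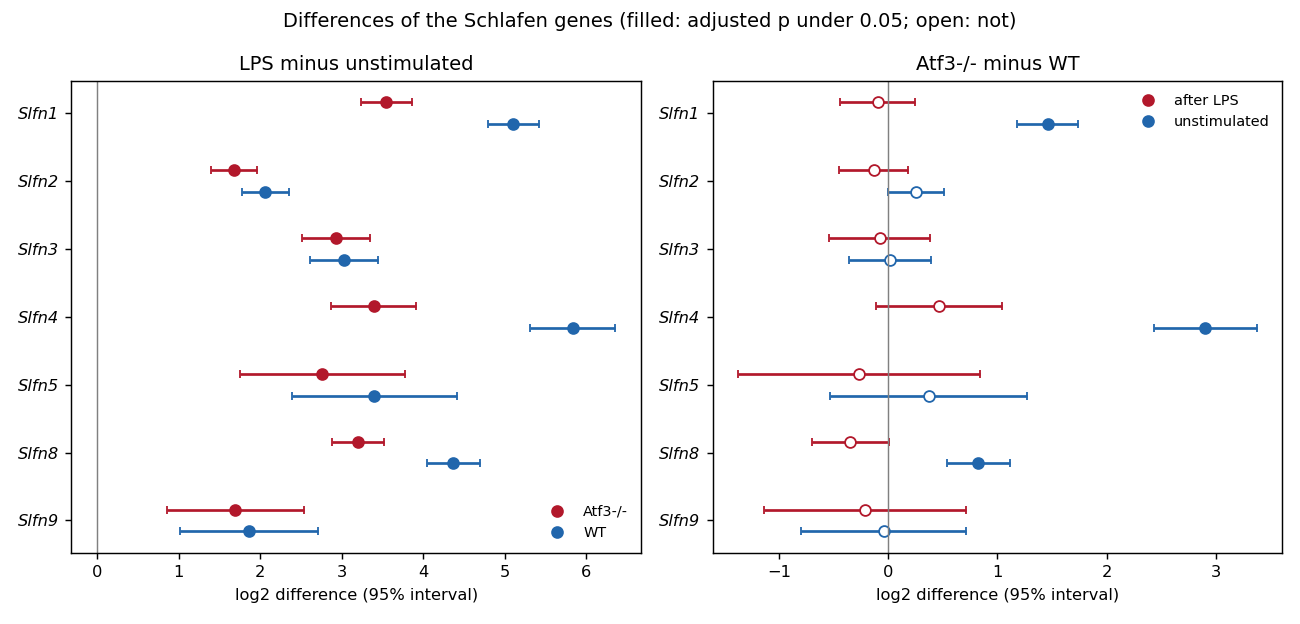
Log2 differences of each Schlafen gene with 95% intervals from limma; left, LPS minus unstimulated in Atf3-/- (upper point of each pair) and WT (lower point); right, Atf3-/- minus WT after LPS (upper) and without LPS (lower). Filled points passed an adjusted p under 0.05; on the right only Slfn1, Slfn4 and Slfn8 without LPS did.

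The LPS response itself was smaller in Atf3-/- than in WT for Slfn4, Slfn1 and Slfn8, by limma's test of the difference between the responses. The response difference (Atf3-/- minus WT) was -2.44 on the log2 scale for Slfn4 (SE 0.34, adjusted p = 0.00338), -1.56 for Slfn1 (SE 0.20, adjusted p = 0.00264) and -1.17 for Slfn8 (SE 0.21, adjusted p = 0.0102). These 3 of 7 stand against 3.58% of all genes called with a response difference below 0. Each difference is, by arithmetic, the genotype difference after LPS minus that without LPS. For Slfn4 and Slfn1 the difference without LPS (2.90 and 1.46) was the larger term, and for Slfn8 the terms were -0.35 after LPS and 0.83 without. With the state as a covariate Slfn1 kept its call (-1.95, adjusted p = 0.00471), while Slfn4 (-2.09, adjusted p = 0.0551) and Slfn8 (-1.29, adjusted p = 0.0605) missed the threshold.

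For the remaining members the test of the response difference was not passed. It was -0.38 for Slfn2 (95% interval -0.79 to 0.02, adjusted p = 0.262), -0.10 for Slfn3 (-0.69 to 0.50, adjusted p = 0.883), -0.64 for Slfn5 (-2.07 to 0.79, adjusted p = 0.640) and -0.17 for Slfn9 (-1.36 to 1.03, adjusted p = 0.902). Once the array state was in the fit the values were 0.25 for Slfn3, 0.17 for Slfn5 and 0.21 for Slfn9, with the sign turned. The intervals of Slfn5 and Slfn9 include response differences as large as that called for Slfn8.

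**Figure D5:**
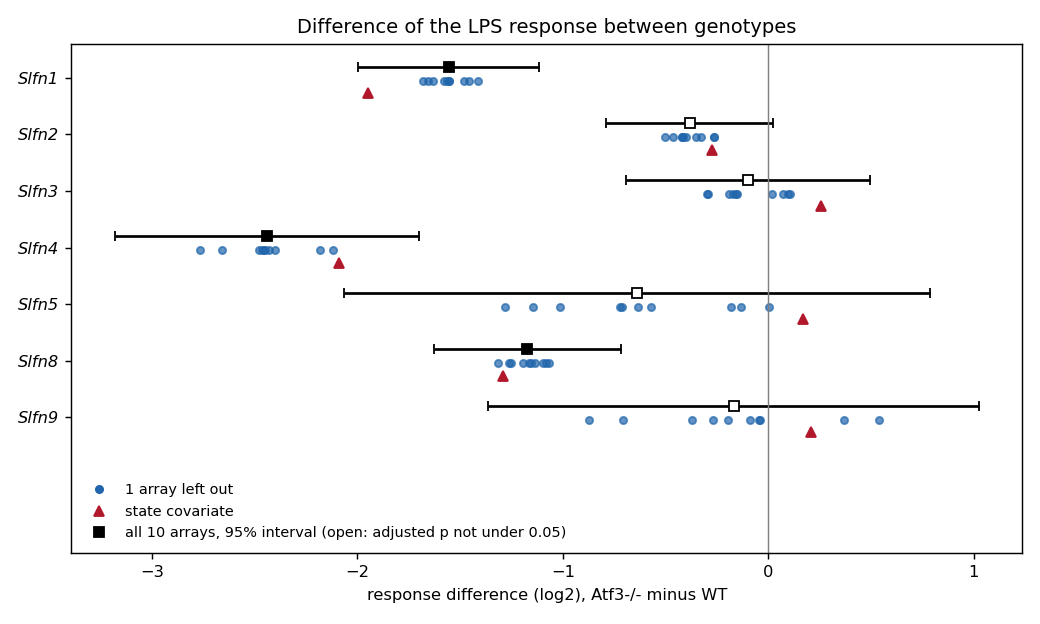
Response difference (Atf3-/- minus WT, log2) of each Schlafen gene over all 10 arrays with its 95% interval (squares), with 1 array left out in turn (dots) and with the array state as a covariate (triangles). The dots of Slfn1, Slfn4 and Slfn8 all lie below -1, while those of Slfn3 and Slfn9 fall on both sides of 0 and those of Slfn5 reach 0.

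Patterns over the 10 arrays were compared by the root mean square difference of log2 values after each gene was centred on its own mean, as a description. The gene outside the family most like Slfn4 was ENSMUSG00000028037, at 0.29, which rose by 3.32 in Atf3-/- and by 5.67 in WT with LPS and was 2.76 higher in Atf3-/- than in WT without LPS. The one most like Slfn1 was ENSMUSG00000038179, at 0.21, with rises of 3.60 in Atf3-/- and 4.69 in WT and a difference of 1.49 without LPS. Neither ID has a name in the files. Within the family the closest by rank among all genes measured was Slfn3, the 2nd gene closest to Slfn5. Slfn1 was the 10th closest to Slfn4, and Slfn8 the 10th closest to Slfn1. Slfn9 was the 497th closest to Slfn8, while their promoters had the highest identity of the pairs of member promoters aligned.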

How the data were processed

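Values were the deposited log2 expression values of 16860 gene-level probesets on 10 arrays. Per the series' design text, the submitters rebuilt them from probe intensities with CustomCDF version 13 probesets, 1 per Ensembl gene, and the submitters' processing notes list affy 1.26.1. The sources used here do not give the background correction, the normalization or the summarisation. The array number limits the precision, and depth does not apply.

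Groups follow the sample titles. A mean per group was fitted to all arrays with limma 3.58.1 (lmFit, eBayes) in R 4.3.3, leaving 6 residual degrees of freedom. The 5 contrasts were tested two-sided at 0.05 after adjusting p by Benjamini-Hochberg across the 16860 probesets. The fit was tested on simulated data. Alternatives were a replicate block, quantile scaling, median subtraction, removal of genes under the 40th percentile of mean level, array weights, a trended robust prior, fits of the compared arrays or of 1 array state, the state as a covariate, and leaving out each array.

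The members and lists were chosen with earlier results of these data known. All 7 members are named. Other genes were named by the smallest root mean square difference from a member, limited to 2 IDs because 0 IDs matched the reference table. Interferon-stimulated genes, neighbouring genes and cell type markers were not analysed for the same reason. Promoter sequences are from RefSeq (GRCm38.p6), matched by symbol for 7 of 7 members, and aligned with Biopython 1.88.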

Additional observations from a re-analysis of the deposited data

Results flagged for a closer look

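For 3 Schlafen genes the response to LPS was not the same in both genotypes, as limma's contrast of the responses tests it. The response difference (Atf3-/- minus WT, log2) was -2.44 for Slfn4, -1.56 for Slfn1 and -1.17 for Slfn8. All 3 kept this direction in each of the 17 alternative fits that gave a value, but these fits reuse the same arrays. With the state as a covariate Slfn4 and Slfn8 missed the threshold (limma adjusted p = 0.0551 and 0.0605). Groups of 2 or 3 arrays are too small for a check of single outlying arrays.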

How the results depend on the processing

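Across the alternatives 4 called values of single members lost their call and 0 of these changed direction. They were Slfn9 after LPS in Atf3-/- (without LPS replicate 1) and in WT (state covariate), and the response differences of Slfn4 and Slfn8 (state covariate). Members called for the response difference numbered 1 with the state as a covariate, against 3 with all arrays and no covariate. The cause was not tested.

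Sign changes were found only for values without a call. In the fit that includes the array state, the response difference (Atf3-/- minus WT, log2) was 0.25 for Slfn3, 0.17 for Slfn5 and 0.21 for Slfn9. The difference without LPS was then -0.18 for Slfn3 and -0.090 for Slfn5, and that after LPS 0.073 for Slfn3 and 0.080 for Slfn5. Among high-state arrays, where the 3 WT arrays without LPS alone give the spread, the difference without LPS was -0.13 for Slfn3 and 0.12 for Slfn9. Among low-state arrays that after LPS was 0.12 for Slfn3, 0.37 for Slfn5 and 0.33 for Slfn9.

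Leaving out 1 array in turn gave response differences from -0.30 to 0.10 for Slfn3, from -1.28 to 0.0012 for Slfn5 and from -0.88 to 0.54 for Slfn9. Genotype differences without LPS ran from -0.15 to 0.11 for Slfn3, from -0.087 to 0.75 for Slfn5 and from -0.17 to 0.16 for Slfn9. After LPS they ran from -0.20 to 0.0044 for Slfn1, from -0.28 to 0.12 for Slfn3, from 0.14 to 0.79 for Slfn4, from -0.91 to 0.37 for Slfn5 and from -0.92 to 0.50 for Slfn9. The low-state arrays alone hold 1 Atf3-/- array with LPS and gave 0.79 for Slfn4, given with no test. This is the same value as without Atf3-/- LPS replicate 2.

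The replicate block changed no call among the members, and members called for the response difference numbered 3 with it. Over all genes the block raised the count called in every comparison, for the response difference from 1005 to 1278. The labels do not say that a number marks shared mice or days, so the numbers were not treated as pairs. In deviations from group means, every pair of replicate 1 arrays correlated above 0.1. Pairs of replicates 2 and 3 did so only between genotypes after LPS. With 2 or 3 arrays a group, these correlations cannot settle whether arrays of 1 number share an effect. Between genotypes the correlations were 0.19 after LPS for both replicates, where 2 arrays a group give 1 value, and 0.30, -0.01 and 0.06 without LPS. Between LPS and unstimulated arrays they were 0.28 and 0.07 in Atf3-/- and 0.13 and -0.07 in WT. The filter at the 40th percentile removed Slfn3. Over all genes, response differences called numbered 1005, against 133 with the state covariate, and 290 to 1364 with 1 array left out. Genotype differences called without LPS numbered 2157, against 1052 with the covariate, 497 among high-state arrays and 1193 to 2418 with 1 array left out. After LPS they numbered 662, against 414 with array weights, 419 with the covariate, 169 among low-state arrays, 63 with the compared arrays alone and 231 to 971 with 1 array left out. Genes called for LPS in Atf3-/- numbered 6931, against 3328 among high-state arrays.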
